A study of Caenorhabditis elegans with 11 samples.

Results

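The comparison described here asks whether the presence of males changed the transcriptome of Caenorhabditis elegans hermaphrodites differently when utx-1 was knocked down by RNA interference (RNAi). It uses all 11 arrays of the series and 22548 probe sets, after 77 control probe sets were left out of 22625. The quantity compared is the interaction, defined as the change with males in knocked-down worms minus the change with males in worms without RNAi, on the log2 scale. A positive interaction means that a transcript was raised more, or lowered less, by males when utx-1 was knocked down.

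All 4 groups were hermaphrodites of the sterile strain glp-1(e2141), whose germ cells fail to proliferate at the restrictive temperature, so the controls carry this allele too. The first group was kept without males (3 arrays) and the second with wild-type males (3 arrays). The third received utx-1 RNAi without males (3 arrays) and the fourth utx-1 RNAi with males (2 arrays), since another sample of the fourth group gave too little RNA. Plates held 250 hermaphrodites and 250 males, or 500 hermaphrodites alone, embryos came from parents kept at 15 °C, and the plates were kept at 25 °C until RNA was taken from 200 hermaphrodites on day 8. The labels describe the replicates as independent experiments. They name no empty-vector bacteria for the worms without RNAi, so the RNAi treatment as such and the loss of utx-1 cannot be told apart when the backgrounds are compared. The comparison within each background does not have this limit, because worms with and without males had the same RNAi treatment there. Plates with males held fewer hermaphrodites, 250 against 500, so the presence of males and the number of hermaphrodites cannot be told apart.

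As background, males of Caenorhabditis shorten the life of hermaphrodites living with them, through mating and through secreted compounds, a phenomenon called male-induced demise. UTX-1 is a histone demethylase that removes methyl groups from lysine 27 of histone H3, a mark of silenced genes, and its loss lengthens life in hermaphrodites. The germ line makes oocytes that are stocked with maternal RNA-binding proteins, meiotic proteins, cell cycle proteins and eggshell components, and an adult that lacks proliferating germ cells has little of these transcripts.

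The knockdown was checked first. At the brighter of the pair of utx-1 probe sets (192746_at), the log2 level was 11.54, 12.45 and 12.01 in worms without RNAi and without males, and 12.58, 13.07 and 13.09 without RNAi with males. It was 6.42, 4.81 and 5.13 under utx-1 RNAi without males, and 9.06 and 8.40 under utx-1 RNAi with males. All 5 arrays of utx-1 RNAi lay below the other 6, but within the RNAi background both arrays with males lay above all arrays without. The interaction at this probe set was 2.37 ± 0.54 (SE, limma adjusted p = 0.0179), and leaving out utx-1 RNAi with males replicate 1 took its adjusted p to 0.0956. At the other utx-1 probe set (174606_at), levels were 4.76, 4.69 and 4.41 under RNAi without males and 5.0 and 4.87 with males, against 7.03 to 7.14 in the worms without RNAi. The interaction there was 0.32 ± 0.14 with an adjusted p of 0.226, so the probe sets differ in how far utx-1 recovered on plates with males.

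The arrays of utx-1 RNAi with males stood apart from the rest. Their values correlated with each other at 0.995 and with those of the other 9 arrays at 0.961 to 0.983, while no pair among the other 9 fell below 0.986. Within groups, differences between arrays had an SD of at least 0.171, so no array is a copy of another. Array medians ranged from 3.78 to 3.98. These arrays carry the transcripts described next, so every interaction rests on 2 arrays that differ from the others in a large set of genes.

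In all, 1725 probe sets of 1493 genes had an interaction at an adjusted p under 0.05 (7.65% of those tested), 1448 higher (6.42%) and 277 lower (1.23%). The interaction exceeded 1 on the log2 scale in 671 of the higher probe sets and fell below −1 in 23 of the lower. In worms without RNAi 2661 probe sets changed with males (11.8%), 1275 higher (5.65%) and 1386 lower (6.15%). Under utx-1 RNAi 4707 did (20.9%), 2671 higher (11.8%) and 2036 lower (9.03%). The excess of higher over lower interactions depended on how the arrays were scaled. With arrays centred on their medians the calls were 1202 higher and 1185 lower, and with arrays centred on their 75th percentiles 1221 higher and 751 lower. Centring moved the median interaction of all probe sets from −0.025 to −0.136 and −0.112, so values near these sizes have no settled sign.

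**Figure D1:**
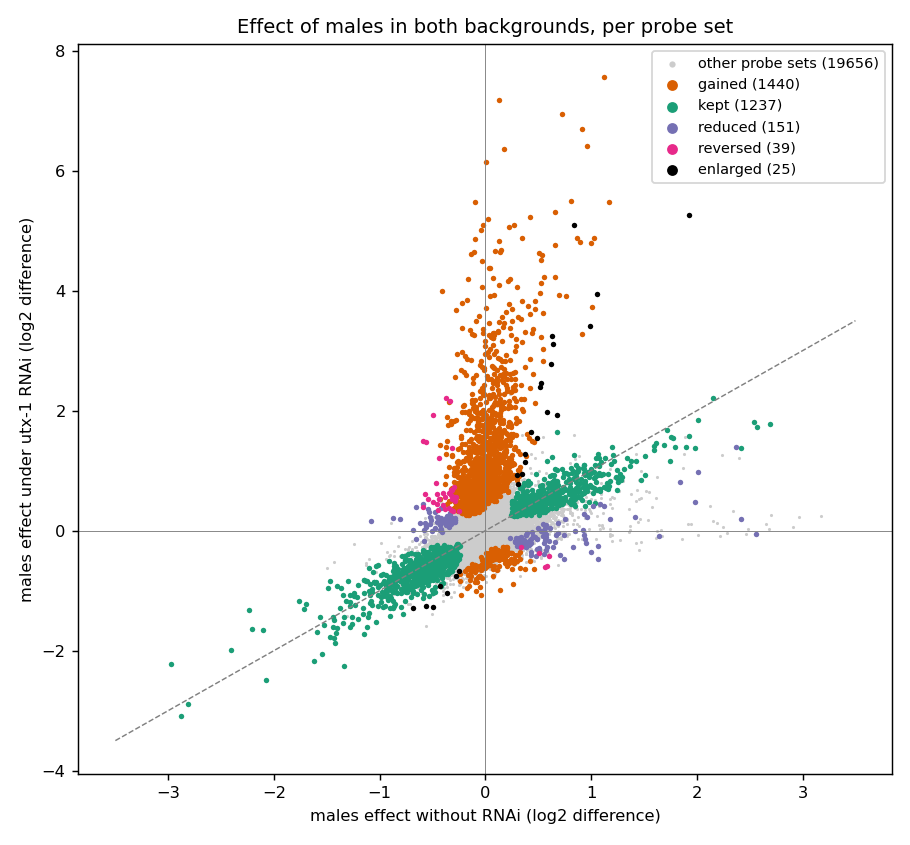
Effect of males without RNAi (horizontal axis) against that under utx-1 RNAi (vertical axis), both as log2 differences, with 1 point per probe set and the class of its response in colour. The dashed line marks equal effects, and kept responses lie along it. The 1303 gained rises lie above 0 on the vertical axis and the 137 gained falls below 0 on that axis.

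Each response was then placed in a class. A kept response was called in both backgrounds in the same direction with no called interaction. A gained response was called under utx-1 RNAi with a called interaction in the same direction, and was not called without RNAi. A reduced response was called without RNAi with an opposing called interaction, a reversed response was called in opposite directions, and an enlarged response was called in both with the interaction adding to it. There were 1440 gained (6.39%), 1237 kept (5.49%), 151 reduced (0.67%), 39 reversed (0.173%) and 25 enlarged (0.111%) responses. The class definitions use the same arrays as the values that follow, so the sizes of effect within a class describe it and are not tests of it.

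Gained responses were mostly rises, 1303 of 1440, and many of the largest were genes of the oocyte and maternal lists. In arrays of whole worms, more cells of a type and more RNA per cell cannot be told apart. The median level over the gained rises was 3.99 without males and 3.99 with males when utx-1 was intact, 3.91 under utx-1 RNAi without males and 5.63 under utx-1 RNAi with males. Of these probe sets 583 were dimmer than the median probe set in all of the other 3 groups. The same held for 9560 of the 16417 probe sets with no call in any comparison. Dimness therefore does not set the gained rises apart from probe sets without a call. The median effect of males over the gained rises was −0.02 without RNAi and 0.965 under utx-1 RNAi.

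Eggshell and oocyte surface genes were the first of these. For cbd-1, which encodes a chitin-binding protein of the eggshell's vitelline layer, levels were 3.02, 3.63 and 2.94 without males, 2.87, 3.45 and 2.99 with males, 2.88, 3.15 and 2.85 under utx-1 RNAi without males, and 8.45 and 8.42 under utx-1 RNAi with males. The last 2 arrays were far above the other 9, which overlapped each other. The interaction was 5.57 ± 0.27 (adjusted p = 1.59e-06). For rme-2, the oocyte receptor that takes up yolk, levels were 2.78 to 3.67 in the other 9 arrays and 8.17 and 7.82 in those of utx-1 RNAi with males, with an interaction of 5.05 ± 0.29 (adjusted p = 1.59e-06). The eggshell proteoglycans cpg-1 and cpg-2 behaved alike. At cpg-2 (187525_s_at) the level was 9.28 and 9.21 with both treatments against 2.57 to 3.77 in the other 9 arrays, and the interaction was 6.18 ± 0.37. At the brightest cpg-2 probe set the interaction was 7.05. Both cpg-1 probe sets had called interactions, of 6.13 ± 0.38 and 4.74 ± 0.32. For egg-1, an oocyte surface protein needed for fertilisation, the level rose to 7.23 and 7.14 against 2.21 to 2.97 elsewhere.

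Over the list of oocyte and eggshell genes, 13 of 15 had a higher interaction and 0 a lower one, against 6.42% and 1.23% of all probe sets. The mean level of the list was 4.73 to 5.43 across the other 9 arrays and 8.40 and 8.29 in the arrays with both treatments. Without RNAi the median effect of males over the list was 0.13, and under utx-1 RNAi it was 3.55. The arrays with both treatments lay above the other 9 for each of these 13 genes.

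Maternal RNA-binding proteins, which hold translation of stored messenger RNA in check in oocytes and early embryos, gave the most complete list. Of 28 genes 27 had a higher interaction and 0 a lower one, with a median of 3.26. At mex-5, a zinc-finger protein that sets up polarity in the zygote, levels were 3.05, 3.48 and 2.95 without males, 2.91, 3.31 and 2.85 with males, 2.87, 3.58 and 3.07 under utx-1 RNAi, and 7.74 and 7.81 with both. Only the last pair left the range of the others. The interaction of mex-5 was 4.74 ± 0.28 (adjusted p = 1.59e-06). The interaction was 4.57 ± 0.26 for spn-4, 4.70 ± 0.30 for the Pumilio-family gene puf-7, 4.83 ± 0.41 for the Y-box gene cey-2, 3.40 ± 0.20 for mex-1 and 3.32 ± 0.19 for daz-1. The smaller interactions included 0.67 for fbf-1 and 0.57 for fbf-2, Pumilio-family genes that keep germ line stem cells undifferentiated.

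Meiotic and germ granule genes followed. Among 30 meiosis genes 21 had a higher interaction and 0 a lower one, with a median of 0.84. For htp-1, a chromosome axis protein, the level was 4.64 and 4.72 with both treatments against 2.26 to 2.86 elsewhere (interaction 2.06 ± 0.18). The synaptonemal complex gene syp-2 had 1.80 ± 0.16, and spo-11, which makes the meiotic DNA breaks, had 1.15. Of 23 germ granule and small RNA genes 14 had a higher interaction and 0 a lower one, with a median of 0.55. The Argonaute wago-1 stood at 7.51 and 7.04 with both treatments, against 2.57 to 3.28 in the other 9 arrays (interaction 4.33 ± 0.28). The P granule gene deps-1 had an interaction of 3.23 ± 0.21, and pgl-3, a core P granule protein, had 1.82 ± 0.20.

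Cell division and DNA replication genes moved in the same direction, with 45 of 54 higher, 0 lower and a median interaction of 1.81. At plk-1, the Polo kinase, levels were 7.87 and 7.76 with both treatments and 3.06 to 3.92 elsewhere (interaction 4.53 ± 0.33, adjusted p = 4.36e-06). The cyclin gene cyb-3 had an interaction of 3.70 ± 0.20. The replicative helicase subunits mcm-3, mcm-6 and mcm-7 had interactions of 2.88 ± 0.16, 2.63 ± 0.17 and 4.41 ± 0.27. Taken over the 5 lists together, 120 of 150 genes had a higher interaction and 0 a lower one, against 6.42% and 1.23% of all probe sets. Without RNAi males raised 8 of the 150, a share near the 5.65% of all probe sets, and lowered 1 (6.15%). Under the other scalings no gene of these 5 lists had a lower interaction either. At the brightest probe set of each gene, gained rises made up 11 of the 15 oocyte and eggshell genes, 26 of the 28 maternal RNA-binding genes, 11 of the 23 germ granule genes, 20 of the 30 meiosis genes and 44 of the 54 cell division genes. The whole class of gained rises held 1112 genes, so most of it lies outside these lists.

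The glp-1 transcript, which encodes the Notch-type receptor of germ line stem cells and carries the mutation, was a gained rise itself. Its levels were 5.27, 6.08 and 5.86 without males, 5.54, 5.86 and 5.54 with males, 5.71, 5.97 and 5.77 under utx-1 RNAi without males, and 7.22 and 7.03 with both. The groups other than the last overlapped, and the interaction was 1.40 ± 0.26 (adjusted p = 0.00463). The strain is labelled sterile in all groups. In 9 arrays the oocyte markers were low, and in the pair of arrays from utx-1 RNAi with males they were high, under the same label. These transcripts do not measure fertility, and whether the worms of those 2 arrays were sterile was not tested.

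**Figure D2:**
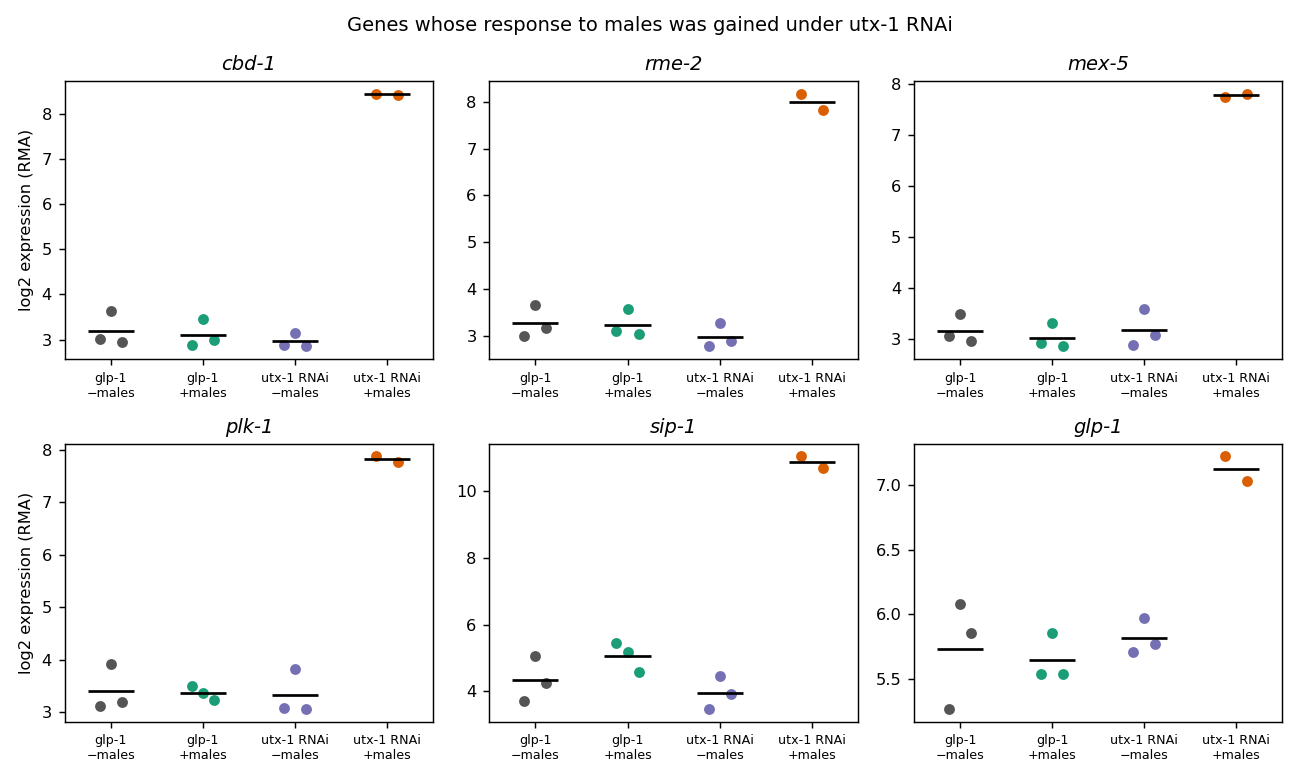
Log2 levels of 6 gained genes in each array, with groups along the horizontal axis and a bar at each group mean. For every gene the arrays of utx-1 RNAi with males both lie above all 9 others, by the widest margin for sip-1 (11.05 and 10.71) and the narrowest for glp-1 (7.22 and 7.03).

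Markers of embryos, sperm and males did not follow the oocyte genes. Over all 22548 probe sets, 4475 had an interaction at an unadjusted limma p under 0.05, the base for the list counts below. Of 14 genes first expressed in the embryo's own nuclei, 0 had a called interaction by limma and 2 had an unadjusted p under 0.05. Their mean level was 3.64 and 3.35 with both treatments and 3.28 to 3.51 in the other 9 arrays. At end-1, an early endoderm gene, levels with both treatments were 4.28 and 3.89, inside the range of 3.62 to 4.43 of the other arrays. Of 52 sperm genes 0 had a called interaction and 8 had an unadjusted p under 0.05. Their mean level was 3.80 and 3.83 with both treatments, against 3.74 to 4.33 elsewhere. None of 18 male neuron and seminal fluid genes had a called interaction, and 0 had an unadjusted p under 0.05. One of them, clec-207, was listed at 4.88 in replicate 1 of the worms with males without RNAi and at 2.42 to 3.31 in the other 10 arrays.

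Yolk protein genes, which are expressed in the intestine and feed oocytes, had no called interaction in 5 genes, again with 0 at an unadjusted p under 0.05. The level of vit-2 was 11.92, 11.85 and 11.89 without males and 12.00 and 12.06 with both treatments, and its interaction was −0.02, with a 95% interval from −0.23 to 0.20.

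Several families held a single member, or a small subset, that moved with the germ line lists while the rest did not. The small heat shock gene sip-1 was 1 of them. Its levels were 3.71, 5.05 and 4.26 without males, 5.45, 5.17 and 4.58 with males, 3.47, 4.45 and 3.91 under utx-1 RNAi, and 11.05 and 10.71 with both (interaction 6.21 ± 0.49, adjusted p = 7.26e-06). None of the other 11 small heat shock genes had a called interaction, and their interactions ranged down to −0.84. Among 76 cytosolic ribosomal protein genes, rpl-11.1 alone had a called interaction. Its level was 10.27 and 10.33 with both treatments against 7.95 to 8.70 elsewhere (interaction 1.94 ± 0.24). The related copy rpl-11.2 had an interaction of 0.01 ± 0.11, with a 95% interval from −0.24 to 0.25.

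Respiratory chain genes showed the same split between copies. The ATP synthase subunit gene asb-1 had an interaction of 1.58 ± 0.24 (adjusted p = 0.00104) and was a gained rise. Its copy asb-2 fell with males in both backgrounds, by 0.69 without RNAi and by 0.53 under utx-1 RNAi, and its interaction of 0.15 ± 0.15 was not called. The complex III gene ucr-2.3 had an interaction of 1.57 ± 0.22, whereas ucr-2.1 and ucr-2.2 were kept falls with interactions of −0.17 ± 0.11 and 0.04 ± 0.16. The copies asb-2, rpl-11.2, ucr-2.1 and ucr-2.2 were chosen for comparison after their values were seen, and some probe sets of copies may share sequence. Among 35 genes of the respiratory chain and ATP synthase, 23 fell with males without RNAi (6.15% of all probe sets). Under utx-1 RNAi 13 fell (9.03%), and 11 were kept falls, against 5.49% of all probe sets for kept responses. A higher interaction was called in 3 of the 35 and a lower one in 0, against 6.42% and 1.23% of all probe sets. Besides asb-1 and ucr-2.3 the higher one was nuo-6, whose call was lost in 14 of 17 alternatives.

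Histone genes and histone-modifying enzymes contributed to the gained class. Of 37 histone genes 7 had a higher interaction and 0 a lower one, against 6.42% and 1.23% of all probe sets. The linker histone genes hil-5 and hil-4 had interactions of 3.56 ± 0.31 and 3.15 ± 0.29. The centromeric histone gene hcp-3 had 2.37 ± 0.27, with levels of 5.80 and 6.25 with both treatments against 3.12 to 4.0 elsewhere. Of 17 enzymes acting on lysine 27 or lysine 4 of histone H3 and their partners, 7 had a higher interaction and 0 a lower one, against the same shares. They were utx-1 itself (above), cfp-1 at 0.90 ± 0.15, the lysine 4 methyltransferase set-2 at 0.87 ± 0.13, its partner wdr-5.1 at 0.73 ± 0.15, the lysine 27 methyltransferase mes-2 at 0.69 and its partner mes-3 at 0.56 ± 0.10, and the demethylase lsd-1 at 0.44. Centring the arrays left 5 of the 17. At mes-3 the level was 7.65 and 7.49 with both treatments and 6.92 to 7.24 in the other arrays. The median interaction of the histone list itself was −0.00 and turned to −0.11 with median centring, so the list as a whole had no direction.

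Among C-type lectin genes, a large family of secreted carbohydrate-binding proteins, 4 of 220 had a higher interaction and 3 a lower one. These are a smaller share than the 6.42% of all probe sets that were higher and close to the 1.23% that were lower. The highest was clec-87, with 9.51 and 9.26 against 2.07 to 4.79 elsewhere at its brighter-responding probe set (interaction 5.77 ± 0.65), followed by clec-88 (4.69 ± 0.53) and clec-91 (3.80 ± 0.71). At these 3 genes replicate 1 of the worms with males without RNAi was the highest of the other 9 arrays, at 4.79 for clec-87, 4.39 for clec-88 and 5.59 for clec-91. The cytochrome P450 genes cyp-31A2, cyp-31A3 and cyp-31A5 were the only 3 of 73 in that family with a higher interaction, at 1.15 ± 0.19, 0.82 ± 0.16 and 1.45 ± 0.17. This is a smaller share than the 6.42% of all probe sets, so the family did not stand out. A lower interaction was called in 1 of the 73, close to the 1.23% of all probe sets. In C. elegans cyp-31A2 and cyp-31A3 act in making the lipid layer of the eggshell. Members of this subfamily are close copies, so their probe sets may report each other.

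**Figure D3:**
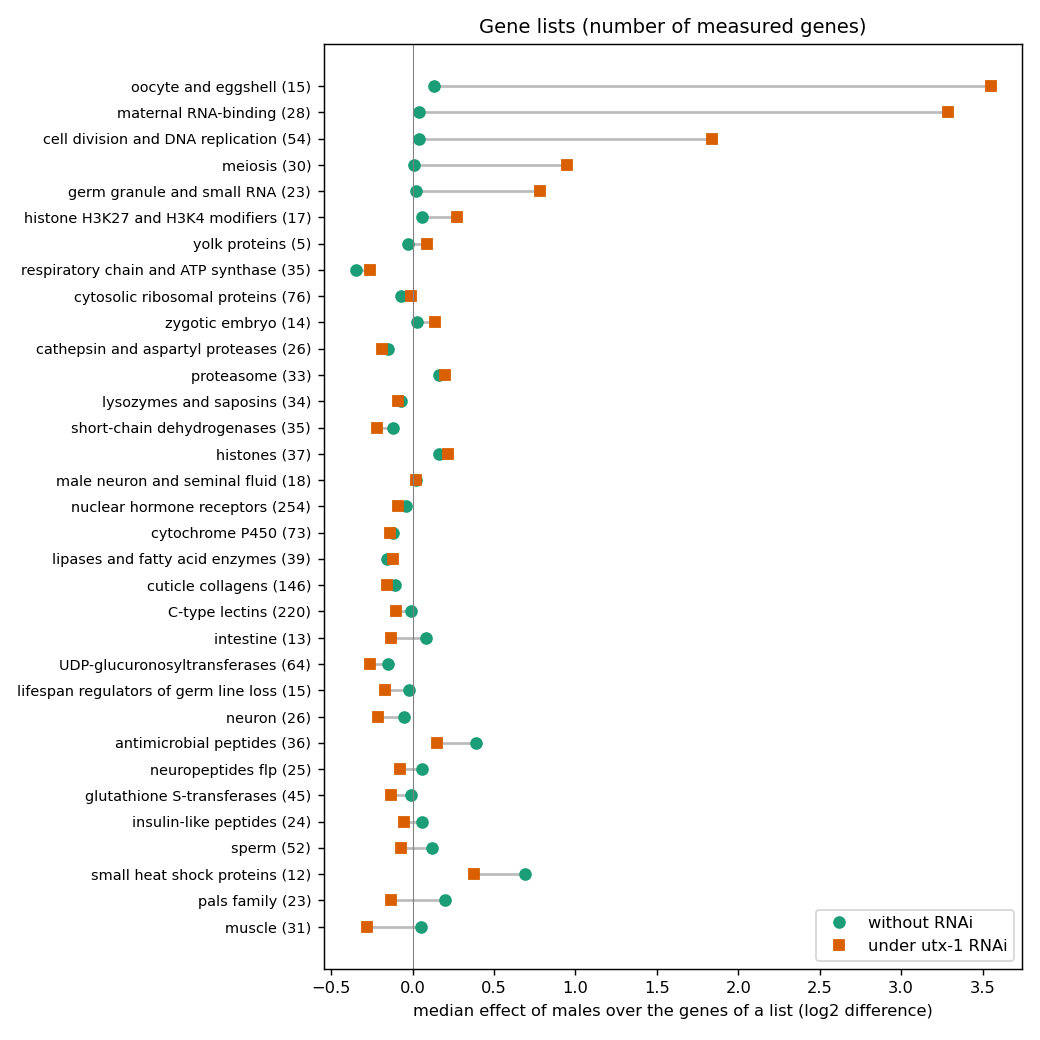
Median effect of males over the genes of each list, as a log2 difference, without RNAi (circles) and under utx-1 RNAi (squares), with the number of measured genes in brackets and the lists ordered by the median interaction. The oocyte and eggshell list moves from 0.13 to 3.55 and the maternal RNA-binding list from 0.04 to 3.29, while most other lists have both symbols close together.

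Gained falls were fewer, 137 of the 1440, with a median effect of 0.076 without RNAi and −0.51 under utx-1 RNAi. Muscle genes were among them. The myosin heavy chain gene unc-54 stood at 6.41, 6.36 and 6.34 without males, 6.25, 6.15 and 6.47 with males, 6.57, 6.15 and 6.29 under utx-1 RNAi without males, and 5.38 and 5.59 with both. The last pair lay below the other 9, and the interaction was −0.77 ± 0.17 (adjusted p = 0.015). Both probe sets of the tropomyosin gene lev-11 had lower interactions, of −1.10 ± 0.23 and −0.70 ± 0.18. The call at the second, with an adjusted p of 0.0348, was lost in 8 of 17 alternatives, with an adjusted p up to 0.169. Of 31 muscle genes 0 had a higher interaction and 3 a lower one (lev-11, unc-54 and pat-2), against 6.42% and 1.23% of all probe sets. The median was −0.33.

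Both arrays with both treatments lay below the other 9 for 13 of the 31 muscle genes, compared with 9.66% of all probe sets. The mean level of the list was 7.03 and 7.27 in those arrays and 7.37 to 7.65 in the others. With utx-1 RNAi with males replicate 1 left out, fewer of the 31 had a called interaction, as did fewer of all probe sets. That fit rests on a single array of its group. The germ line lists were at their highest in the arrays with both treatments. Since RMA values express each transcript against the whole array, the part that the germ line transcripts have in the lower muscle values was not tested. Other gained falls called in every alternative run were the uncharacterised gene Y39B6A.1 (−1.13 ± 0.21), the fatty acid elongase gene elo-3 (−0.63 ± 0.12) and the nuclear hormone receptor gene nhr-103 (−0.52 ± 0.10). Less stable were the UDP-glucuronosyltransferase gene ugt-47 (−0.89 ± 0.22, adjusted p up to 0.135 over the alternatives), the nuclear hormone receptor gene nhr-123 (−0.55 ± 0.13, up to 0.138), the tyrosine hydroxylase gene cat-2 (−0.62 ± 0.14, up to 0.114) and pals-6 (−1.15 ± 0.27, up to 0.106).

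Kept responses made up 475 rises and 762 falls. Their median effects were 0.584 without RNAi and 0.549 under utx-1 RNAi for the rises, and −0.54 and −0.595 for the falls. A call that misses the threshold does not show equal effects. For 1172 of the 1237 the 95% interval of the interaction lay within 1 log2 unit either way. The same held for 16094 of the 16417 probe sets with no call in any comparison. That bound is wider than the median kept effects, so it still admits the loss of a typical kept response. The median half-width of that interval over all probe sets was 0.312. The backgrounds share no array, though they were normalised together. Of 1275 probe sets that rose with males without RNAi, 1088 (85.3%) had a positive effect under utx-1 RNAi as well, compared with 56.3% of all probe sets with a positive effect. Of 1386 that fell, 1235 (89.1%) had a negative effect, compared with 66.4%. The median rise shrank from 0.512 to 0.298, while the median fall went from −0.452 to −0.395. Members chosen for a called effect in 1 background tend to have smaller effects in another set of arrays whatever the treatment.

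Among the kept rises, E02H9.7, a gene of unknown function, had arrays close together within each group. Its levels were 4.04, 4.10 and 4.10 without males, 5.93, 6.25 and 6.10 with males, 4.11, 4.24 and 4.03 under utx-1 RNAi without males, and 6.08 and 5.85 with both. Arrays with and without males did not overlap in either background. Males raised it by 2.02 ± 0.10 without RNAi and by 1.84 ± 0.11 under utx-1 RNAi, with an interaction of −0.18 and a 95% interval from −0.49 to 0.14. The superoxide dismutase gene sod-5, a known target of insulin-like signalling, rose by 1.93 ± 0.26 and 1.58 ± 0.29 (interval of the interaction from −1.20 to 0.50). The tyrosine aminotransferase gene tatn-1 rose by 1.75 ± 0.21 and 1.56 ± 0.23. The interval for sod-5 still admits a rise smaller by more than 1 log2 unit under utx-1 RNAi.

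Antimicrobial peptide genes had 13 of 36 members that rose with males without RNAi (5.65% of all probe sets) and 10 under utx-1 RNAi (11.8%), while 2 and 1 fell. Of these responses 9 were kept, against 5.49% of all probe sets. The caenacin gene cnc-1, an antimicrobial peptide of the epidermis, rose by 2.16 ± 0.38 and by 2.20 ± 0.43. Its level with both treatments was 7.60 and 6.53, against 5.38, 4.43 and 4.77 under utx-1 RNAi without males. Without the first of those arrays the rise under RNAi had an adjusted p of 0.0577. For fip-5, another peptide gene, males raised the level by 1.61 ± 0.23 and 1.46 ± 0.26. No antimicrobial peptide gene had a called interaction, and 4 had an unadjusted p under 0.05, against 4475 of all 22548 probe sets.

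Small heat shock genes rose in 7 of 12 cases without RNAi (5.65% of all probe sets) and 5 under utx-1 RNAi (11.8%). None fell without RNAi and 2 fell under utx-1 RNAi, and 4 responses were kept. The largest kept rise was hsp-16.21, a chaperone induced by heat, at 2.57 ± 0.34 and 1.73 ± 0.39, with 5.30 and 6.70 with both treatments against 4.77, 4.18 and 3.87 under utx-1 RNAi alone. Without the brighter of those arrays, replicate 3, the rise under RNAi had an adjusted p of 0.075. The kept hsp-12.3 rose by 0.86 and 0.91, and hsp-12.6 by 0.67 and 0.60. Insulin-like peptide genes had 7 rises among 24 without RNAi (5.65% of all probe sets) and 3 under utx-1 RNAi, a share near the 11.8% of all probe sets. They had 3 kept responses and 0 called interactions. At an unadjusted p under 0.05 there were 2 interactions, against 4475 of all 22548 probe sets.

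Among kept falls, scl-19, a gene of the secreted SCP/TAPS family, changed the most. Its levels were 8.18, 7.27 and 6.60 without males, 4.31, 4.51 and 4.57 with males, 7.28, 6.64 and 6.83 under utx-1 RNAi without males, and 3.66 and 4.0 with both. Arrays with males lay below those without in both backgrounds. The falls were −2.88 ± 0.30 and −3.09 ± 0.34. The carotenoid oxygenase gene bcmo-1 stood at 5.14, 5.29 and 5.47 and then at 3.27, 3.06 and 3.26 with males, and at 5.03, 5.33 and 4.67 and then at 3.27 and 3.44 with males under utx-1 RNAi. Its effects were −2.10 ± 0.15 and −1.65 ± 0.16, and the interaction of 0.45 had an interval from −0.03 to 0.93. For Y105C5B.15 the effects were −1.53 ± 0.16 and −1.58 ± 0.18.

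Under utx-1 RNAi other large kept falls had a wide pair of arrays. The dehydrogenase gene dhs-26 stood at 4.48 and 6.07 with both treatments, and C30G12.2 at 6.11 and 8.12. Both stayed past the threshold in both backgrounds in every alternative run, with effects of −2.81 ± 0.38 and −2.89 ± 0.43 for dhs-26 and −2.08 ± 0.42 and −2.49 ± 0.47 for C30G12.2. Other calls were lost. The protease gene cpr-2, of the cathepsin B type, stood at 7.21 and 9.72 with both treatments, against 10.64, 10.93 and 10.48 under utx-1 RNAi without males, and its fall of −2.21 ± 0.68 had an adjusted p of 0.454 without the lower array, replicate 1. The lipase gene lips-11 stood at 4.46 and 6.81 (adjusted p = 0.125 without replicate 1) and clec-61 at 3.20 and 5.57 (0.392). The gene clx-1, at 7.40 and 9.58, had 0.159. Replicate 1 was the lower array in each of these 4 genes. For lips-11 and clx-1 the fall without RNAi was also uncertain, with adjusted p of 0.0428 and 0.0446, each lost in 9 alternatives.

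Kept responses were spread over families of the cuticle and of detoxification. Of 146 cuticle collagen genes 24 fell without RNAi (6.15% of all probe sets), 34 under utx-1 RNAi (9.03%) and 19 in both as kept responses. They had 0 called interactions and 7 at an unadjusted p under 0.05, against 4475 of all 22548 probe sets. With median centring 5 of the 146 collagen genes had a lower interaction, a smaller share than the 1185 of all 22548 probe sets. Of 64 UDP-glucuronosyltransferase genes, which attach sugars to small molecules for excretion, 17 were kept, as were 16 of 73 cytochrome P450 genes, 10 of 45 glutathione S-transferase genes, 22 of 220 C-type lectin genes and 7 of 26 cathepsin and aspartyl protease genes. The share of kept responses over all probe sets was 5.49%. The aspartyl protease gene asp-13 had effects of −1.70 ± 0.16 without RNAi and −1.22 ± 0.18 under utx-1 RNAi.

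**Figure D4:**
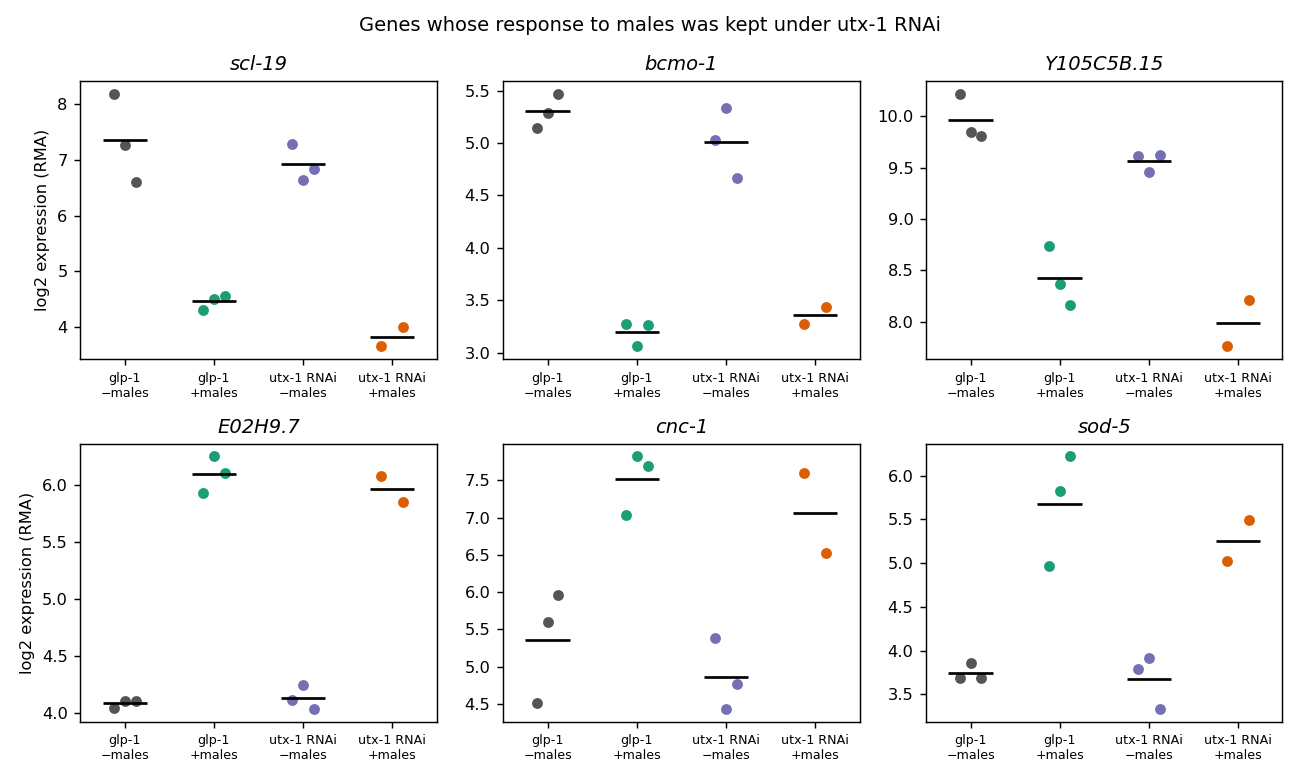
Log2 levels of 3 kept falls (upper row) and 3 kept rises (lower row) in each array, with groups along the horizontal axis and a bar at each group mean. In both backgrounds the arrays with males lie on the same side of those without for scl-19, bcmo-1, Y105C5B.15, E02H9.7, cnc-1 and sod-5.

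Reduced responses numbered 92 rises and 59 falls. The median of the reduced rises was 0.535 without RNAi and −0.141 under utx-1 RNAi. In worms with males the median difference of utx-1 RNAi from no RNAi was −0.439 for these transcripts, and in worms without males it was 0.174. The definition of the class favours both of these directions, so the values cannot show which side of the comparison contributed. The best supported was C16C8.9, a gene of unknown function. Its levels were 4.24, 4.52 and 4.51 without males, 6.71, 6.51 and 6.0 with males, 4.57, 4.70 and 4.52 under utx-1 RNAi without males, and 5.04 and 5.12 with both. With males it stood above every other array without RNAi, and only a little above its own controls under RNAi. The interaction was −1.50 ± 0.23 (adjusted p = 0.000963), and the effect under utx-1 RNAi of 0.48 ± 0.17 was not called.

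The UDP-glucuronosyltransferase genes ugt-16 and ugt-9 were reduced without being lost. At ugt-16 the level was 3.15, 3.31 and 3.01 without males, 4.85, 4.88 and 5.26 with males, 3.39, 3.43 and 3.60 under utx-1 RNAi without males, and 4.36 and 4.22 with both. The groups did not overlap in either background, and the rise went from 1.84 ± 0.12 to 0.82 ± 0.13 (interaction −1.02 ± 0.18, adjusted p = 0.00282). For ugt-9 it went from 2.02 ± 0.15 to 0.98 ± 0.17 (interaction −1.03 ± 0.23, adjusted p = 0.0156). The short-chain dehydrogenase gene dhs-4 rose by 1.18 ± 0.15 without RNAi and had 0.19 ± 0.17 under utx-1 RNAi, where its arrays stood at 3.85 and 4.53. Its interaction was −0.99 ± 0.23. The small gene Y82E9BL.9 had 1.41 ± 0.15 and 0.24 ± 0.17, with an interaction of −1.18 ± 0.22 (adjusted p = 0.00511).

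The pals family is an expanded nematode family whose gene pals-5 is a standard marker of the response to intracellular pathogens. In it 2 of 23 measured members were reduced rises, against 0.67% of all probe sets for reduced responses. This family was picked after values were seen, so its counts describe it only. At pals-29 the level was 4.67, 4.93 and 5.14 without males, 5.59, 5.99 and 6.17 with males, 4.97, 4.53 and 5.26 under utx-1 RNAi without males, and 4.66 and 4.49 with both. Males separated the arrays without RNAi, whereas under utx-1 RNAi the groups overlapped. The interaction was −1.35 ± 0.28 (adjusted p = 0.0107). For pals-32 the rise of 0.94 ± 0.14 became −0.13 ± 0.16 (interaction −1.07 ± 0.22). Over the 23 members 0 had a higher and 6 a lower interaction, against 6.42% and 1.23% of all probe sets. The lower interactions span several classes, since 2 of the 23 were reduced, 2 gained (6.39% of all probe sets) and 1 enlarged (0.111%). Without RNAi 6 members rose with males (5.65%) and 1 fell (6.15%). With utx-1 RNAi with males replicate 1 left out, 2 of the 23 had a lower interaction. The kept member was pals-4, with 1.09 and 0.92, and pals-5 had 1.57 and 0.39 with an interaction of −1.18 that was not called.

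The lowest called interactions came from uneven replicates. At T26A8.3 the worms with males without RNAi had 6.37, 5.92 and 3.91, and the other 8 arrays lay between 2.61 and 3.16. At clec-94 they had 6.71, 6.51 and 4.72 against 3.25 to 3.87, and at C16C8.7 4.96, 4.42 and 3.40 against 2.39 to 2.86. Replicate 3 was the lowest of the group at each of these genes. Their interactions were −2.62 ± 0.70 (adjusted p = 0.0398), −2.22 ± 0.58 (0.0369) and −1.73 ± 0.43 (0.0275), and over the other settings that could be run (16, 17 and 16), adjusted p reached 0.147, 0.125 and 0.0948. The insulin-like peptide gene ins-31 had the same arrangement, at 6.58, 5.28 and 3.32, with an interaction of −2.52 ± 0.89 that was not called (adjusted p = 0.124). So did the peptide gene fipr-17, at 6.51, 6.01 and 3.74, with −2.43 ± 0.78 (adjusted p = 0.0882).

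The antioxidant gene sod-3, a standard reporter of the FOXO factor DAF-16, was a reduced rise. Its levels were 6.33, 6.62 and 6.62 without males, 7.21, 7.25 and 7.16 with males, 6.85, 6.74 and 6.71 under utx-1 RNAi without males, and 6.80 and 7.0 with both. The rise of 0.68 ± 0.09 without RNAi became 0.13 ± 0.11, and worms under utx-1 RNAi without males stood above their counterparts without RNAi. The interaction was −0.55 ± 0.14 (adjusted p = 0.0338), and adjusted p went up to 0.174 when utx-1 RNAi with males replicate 1 was left out. Among the genes followed for their place in earlier work on males and utx-1, ins-11 rose by 0.78 ± 0.21 without RNAi and had 0.45 ± 0.24 under utx-1 RNAi, and ins-7 had 0.74 ± 0.19 and 0.47 ± 0.21. Their interactions were not called (adjusted p = 0.618 and 0.674). The related demethylase gene jmjd-3.1 had 0.39 ± 0.11 and 0.16 ± 0.12 with an interaction of −0.22 ± 0.17. For nlp-7, unc-25 and snf-11 no effect of males was called in either background.

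Reduced falls were smaller. At wht-2, an ABC transporter gene, levels were 6.81, 6.57 and 6.66 without males, 5.94, 5.92 and 5.56 with males, 6.21, 6.27 and 6.25 under utx-1 RNAi without males, and 6.27 and 6.63 with both. Arrays with and without males were separate without RNAi, and those of utx-1 RNAi without males lay between them. The interaction was 1.08 ± 0.18 (adjusted p = 0.00194). The cell cycle gene zyg-11 (1.03 ± 0.21), the mitochondrial membrane ATPase gene atad-3 (0.91 ± 0.16), the N-glycosylation gene algn-8 (0.84 ± 0.15) and the DNA damage checkpoint gene mrt-2 (0.75 ± 0.13) followed. At mrt-2 the level was 3.44, 3.40 and 3.40 with males and 4.07, 3.87 and 3.87 without, whereas under utx-1 RNAi it was 4.08 and 3.97 with males and 3.65, 3.84 and 3.92 without.

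**Figure D5:**
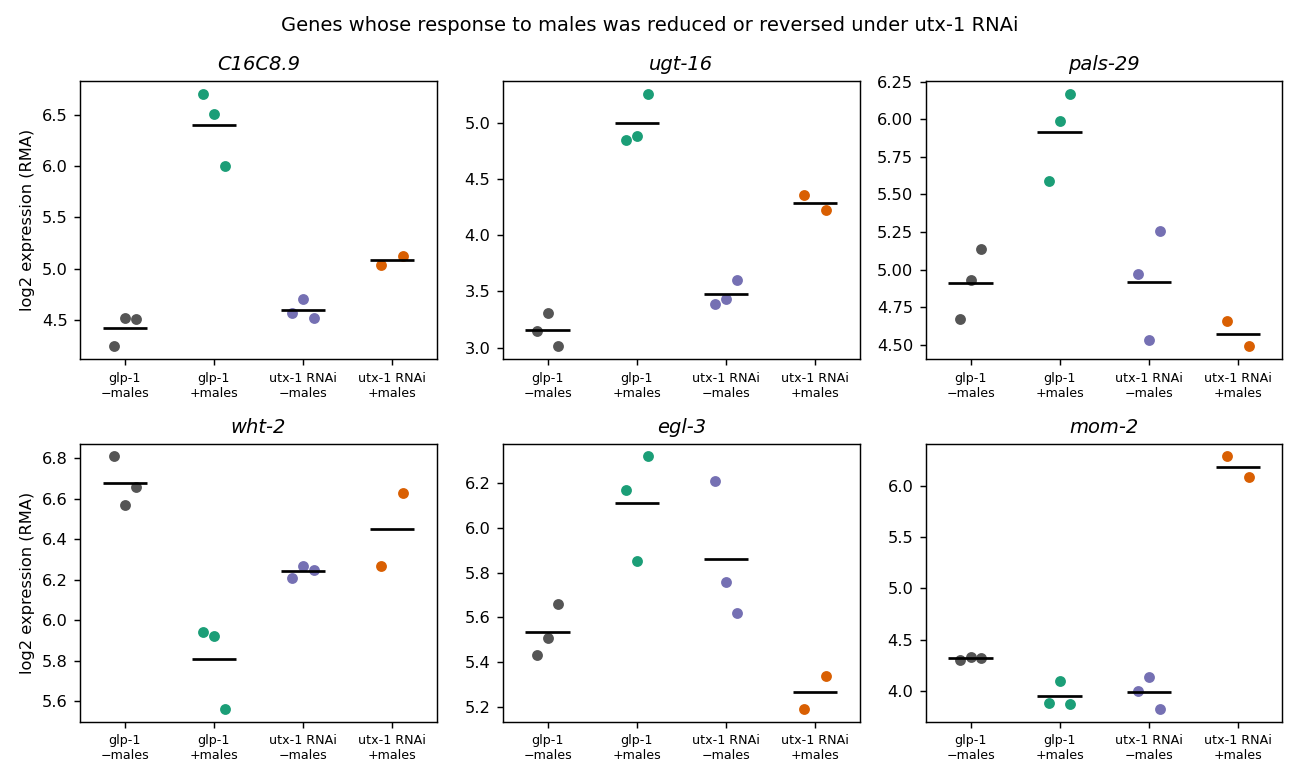
Log2 levels of 4 reduced responses (C16C8.9, ugt-16, pals-29 and wht-2) and 2 reversed responses (egl-3 and mom-2) in each array, with groups along the horizontal axis and a bar at each group mean. Under utx-1 RNAi males still raise ugt-16, though to 4.36 and 4.22 against 4.85 to 5.26 without RNAi, and mom-2 falls with males without RNAi but rises to 6.29 and 6.09 under utx-1 RNAi.

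Reversed responses were 34 falls that became rises and 5 rises that became falls. Several of the first kind encode proteins of oocytes and embryos. The Wnt ligand gene mom-2 stood at 4.30, 4.33 and 4.32 without males, 3.88, 4.09 and 3.87 with males, 4.0, 4.13 and 3.82 under utx-1 RNAi without males, and 6.29 and 6.09 with both. The falls without RNAi were small next to the rises under it, −0.37 ± 0.10 against 2.21 ± 0.11 (interaction 2.58 ± 0.14). The chromosome axis gene htp-3 had −0.34 ± 0.09 and 2.17 ± 0.10, the maternal homeobox gene pal-1 had −0.50 ± 0.13 and 1.93 ± 0.15, and the spindle checkpoint gene bub-3 had −0.44 ± 0.13 and 1.21 ± 0.15. The mitochondrial complex III assembly gene bcs-1 had −0.47 ± 0.12 and 0.79 ± 0.14.

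Of the rises that became falls, egl-3, the proprotein convertase that matures neuropeptides, had 0.58 ± 0.15 and −0.59 ± 0.17 at 192571_s_at (interaction −1.17 ± 0.23). Levels there were 5.43, 5.51 and 5.66, then 6.17, 5.85 and 6.32 with males, and 6.21, 5.76 and 5.62, then 5.19 and 5.34 under utx-1 RNAi. Males separated the arrays in both backgrounds, upward in the first and downward in the other. At its other probe set, 173431_at, the effects of 0.19 ± 0.17 and −0.48 ± 0.19 had the same signs, with no call and an interaction of −0.68 ± 0.26 (adjusted p = 0.161).

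Enlarged responses numbered 18 rises and 7 falls. The eggshell gene trcs-1 rose by 0.84 ± 0.24 without RNAi and by 5.09 ± 0.27 under it, and the ribonucleotide reductase gene rnr-2 by 0.99 ± 0.20 and 3.41 ± 0.23. For rnr-2 the arrays with males without RNAi stood at 6.34, 6.21 and 6.42, above 4.91, 5.72 and 5.38 without males and below 8.98 and 8.44 with both treatments. At iff-1, a translation factor gene of the germ line, the worms with males stood at 7.06, 6.65 and 4.93 against 3.80, 4.74 and 4.33 without males, and at 9.24 and 9.55 with both treatments. Replicate 3 was again the lowest of its group. Its interaction of 3.34 ± 0.66 had an adjusted p of 0.00743, and of 0.057 with a trended and robust prior. Among the falls, ugt-44 went from −0.56 ± 0.12 to −1.26 ± 0.13.

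The remaining calls do not decide between these classes. A response was called without RNAi alone, with no called interaction, at 1209 probe sets, of which 1037 had the same sign under utx-1 RNAi. A response was called under utx-1 RNAi alone at 1960, of which 1625 had the same sign without RNAi. For these a difference between the backgrounds was not shown, nor was equality. In 1057 of the 1209 the 95% interval of the interaction lay within 1 log2 unit either way. That bound is wider than their median effects without RNAi, 0.479 for rises and −0.374 for falls. Another 70 probe sets had a called interaction with neither effect called.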

How the data were processed

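RNA of 11 samples was hybridised to Affymetrix arrays of the C. elegans genome, with 1 array for each sample. The deposited values are log2 expression from RMA (background correction, quantile normalisation and probe set summary), per the submitters' processing notes; no version or settings of it are named there. Deposited values ran from 1.83 to 13.69 on the log2 scale, and depth has no meaning for arrays, whose number limits precision.

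From these values limma 3.58.1 (R 4.3.3) fitted 4 group means over all 11 arrays (lmFit, contrasts.fit, eBayes; 7 residual and 4.84 prior degrees of freedom), with Benjamini-Hochberg adjustment over 22548 probe sets and a threshold of 0.05. Errors are standard errors of the fit unless named otherwise, and intervals cover 95%. P-values measure the spread between these samples. The same steps were tested on simulated data: of 50 probe sets given an interaction of 1, 68% were called, and of 50 given 0.5, 12%. Of 50 given −1, 78% were called. The simulation changed far fewer probe sets than the 1725 called in the data, so these shares need not hold there. Of the probe sets 20766 have 1 gene symbol in the platform annotation, 887 several and 895 none; 20701 symbols were updated through RefSeq names. A gene on a list is represented by its brightest probe set over all arrays.

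Groups follow the sample titles; the replicate numbers in the descriptions of a pair of utx-1 RNAi arrays differ from the titles, which were followed. The genes named come from the 15 largest called interactions in each direction, the 10 kept rises and 10 kept falls with the largest smaller effect, up to 10 each of the reduced rises, reduced falls, reversed and enlarged responses by size of interaction, up to 4 per list by smallest interaction p, and 10 followed genes. Other list members (such as spo-11, fbf-1, fbf-2, lsd-1, mes-2, hsp-12.3, hsp-12.6, pals-4 and pals-5) were named after their values were seen. The members, classes and lists were chosen with earlier results of these data known. Alternatives were a trended and robust prior, array weights, centring on medians, a filter on dim probe sets, the replicate number as a block and leaving out each array. Centring on the 75th percentile was chosen after seeing the data. No p-value adjusted over a list alone is given.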

Additional observations from a re-analysis of the deposited data

Results flagged for a closer look

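These results were picked out because the effect of males differed between the backgrounds by the test of the difference itself. Over all probe sets 1440 responses were gained, 151 reduced, 39 reversed and 25 enlarged under utx-1 RNAi. Among the genes named, 10 had called effects of opposite sign. The interaction was 2.58 for mom-2, 2.51 for htp-3, 2.43 for pal-1, 2.09 for F35C11.5, 2.04 for mrp-4, 1.70 for C24F3.2, 1.65 for bub-3, 1.26 for bcs-1 and 1.19 for dnj-18, all falls without RNAi and rises under it, and −1.17 for egl-3, a rise without RNAi and a fall under it. Of these, bub-3 had the least certain fall without RNAi (limma adjusted p = 0.0496). The groups hold 2 or 3 arrays, too few to look for a single outlying array within a group.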

How the results depend on the processing

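The count of called interactions was 1137 without utx-1 RNAi with males replicate 1 and at most 1706 with any other array left out. The same array set the lowest counts for males under utx-1 RNAi (2028, highest 4867), kept (429, highest 1291), reduced (70, highest 155) and gained responses (978, highest 1450), and without it 69 interactions were lower. For males without RNAi the range was 1362 to 2732, with 1362 without glp-1 without males replicate 1, 1678 and 1524 without glp-1 with males replicates 2 and 3. Reversed responses ranged from 17 to 57 and enlarged from 7 to 33. Leaving out an array of utx-1 RNAi with males leaves 1 sample, assumed to vary like the other groups. Array weights gave 72 reversed and 45 enlarged responses. Centring on 75th percentiles gave 227 reduced and 41 enlarged. Centring on medians gave 7565 calls for males under utx-1 RNAi (26.6% higher, against 41.2% with 75th percentiles and 56.7% as deposited), 251 reduced, 98 reversed and 45 enlarged responses. Without dim probe sets there were 1100 interactions, 872 gained and 65 reversed responses. Fewer probe sets were tested there; the cause of the other shifts was not tested. Of the responses reported, the fewest shared with any alternative were 404 of 1237 kept, 45 of 151 reduced, 859 of 1440 gained, 12 of 39 reversed and 4 of 25 enlarged.

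Same-numbered arrays of different groups did not deviate together (r from −0.352 to 0.051 over 15 pairs). This check cannot exclude pairing, because deviations within such small groups depend on each other. A pair of arrays also has conflicting replicate numbers. With the replicate number as a block there were 1303 interactions, 1552 calls for males without RNAi, 1180 gained, 731 kept, 55 reduced, 20 reversed and 14 enlarged responses. Of 159 named values past the threshold 117 stayed past it in every alternative run (16 or 17, since the dim filter removes some probe sets), 42 were lost in 1 or more and 0 changed sign.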

Other observations

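Proteasome genes were not described above. They rose with males in 3 of 33 cases without RNAi (5.65% of all probe sets) and 6 under utx-1 RNAi (11.8%). By limma they had 0 called interactions and 1 at an unadjusted p under 0.05, against 4475 of all 22548 probe sets. The arrays of utx-1 RNAi with males both lay above the other 9 for 16 of the 33, compared with 11.2% of all probe sets. For rpt-3, an ATPase of the proteasome's regulatory particle, levels were 10.04 and 9.86 in those arrays and 9.41 to 9.75 elsewhere. The median interaction of the list was 0.03 and turned to −0.08 with median centring.

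Nuclear hormone receptor genes, a large family of transcription factors, had 2 higher and 4 lower interactions among 254, a smaller share than the 6.42% of all probe sets that were higher and close to the 1.23% that were lower. The gene nhr-10 had an interaction of 0.70 ± 0.19 with neither effect of males called, at 6.70, 6.74 and 6.90 under utx-1 RNAi without males, 6.96 and 7.31 with both treatments, and 7.06 to 7.78 without RNAi. Its adjusted p was 0.046, and it was lost in 13 of 17 alternatives.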
